A study of Mus musculus with 14 samples.

Results

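The genes described here are 9 genes by which the switch between an epithelial and a mesenchymal state is usually read: the cadherin genes Cdh1, Cdh2 and Cdh11, the transcription factor genes Snai1, Snai2, Twist1, Zeb1 and Zeb2, and the intermediate filament gene Vim. They were taken by gene symbol, and all 9 are among the 16181 genes of the deposited CPM table and the 50686 genes of the deposited count table. Messenger RNA was sequenced from 2 mouse embryonic stem cell (ESC) lines, shLacZ, which carries an shRNA against LacZ and is the control, and shDis3l2, which carries an shRNA against Dis3l2, the exoribonuclease that degrades uridylated RNA. Both are stable derivatives of an ESC line with an Osr1-GFP reporter. Each line was sampled undifferentiated in LIF and 2i (d0), and as embryoid bodies (EBs) formed in hanging drops with serum after LIF and 2i were withdrawn, on d2, d4, d6, d8, d10 and d12. This gave 14 libraries, 1 per line and day, so neither line is represented by more than 1 culture series.

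In an epithelial to mesenchymal transition, cells give up E-cadherin junctions and apical-basal polarity and take on a motile, matrix-embedded form. Transcription factors of the SNAIL, TWIST and ZEB families bind E-box sequences, among them those in the Cdh1 promoter, and repress epithelial genes, while N-cadherin, cadherin-11 and vimentin mark the mesenchymal state. In the embryo the switch takes place at the primitive streak, when epiblast cells form mesoderm, and EBs pass through a stage with streak genes as they differentiate.

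In the mouse genome (GRCm38, GENCODE M21) Cdh1 (chr8:106603351-106670246, plus strand) and Cdh11 (chr8:102632095-102785642, minus strand) lie on the same chromosome, as do Snai1 (chr2:167538195-167542814, plus strand), Zeb2 (chr2:44983632-45117395, minus strand) and Vim (chr2:13573927-13582826, plus strand), and Cdh2 (chr18:16588877-16809246, minus strand) and Zeb1 (chr18:5591860-5775467, plus strand). Snai2 (chr16:14705852-14709385, plus strand) and Twist1 (chr12:33957671-33959829, plus strand) each lie apart. These are whole gene bodies, and reads were counted on their exons.

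Between 7178712 and 39888099 reads per library were counted on genes, and the shallowest library was shLacZ d4. Values are CPM, that is, read counts scaled to a common total of reads on genes, and intervals are 95% and cover counting error only. Dis3l2, the targeted gene, stood in the shDis3l2 series at 0.137, 0.282, 0.321 and 0.552 of the shLacZ level from d0 to d6, at 0.971 (0.837 to 1.13) on d8, at 0.95 (0.788 to 1.15) on d10 and at 0.755 (0.609 to 0.934) on d12, again lower beyond counting error. The libraries labelled shDis3l2 at d8 and d10 thus held Dis3l2 mRNA at a level not distinguishable from the control within counting error, and each of the 3 tests is given without both days as well, a choice made after seeing the data. At d0 the median gene had a log2 fold between the lines of -0.32, against -0.07 to 0.05 on the other days, so values of d0 carry a general shift towards shLacZ. The 7 pluripotency markers summed at d0 to 3050 CPM in the control and 2159 CPM in the knockdown line, all of them above the floor of 3 reads.

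Over d6 to d12 the shDis3l2 series held less Cdh1 mRNA and more Cdh2, Cdh11, Snai2, Twist1, Zeb1, Zeb2 and Vim mRNA than the shLacZ series, while Snai1 did not pass the test. By edgeR's quasi-likelihood test over those 8 libraries, with day as a block and Benjamini-Hochberg adjustment over 16016 genes, 7 of the 9 genes were higher and 1 was lower. Of all genes tested, 19.7% were called higher and 19.2% lower. The median log2 fold change of the 9 genes was 1.27, against 0.01 over all genes tested. The days of 1 series stand in for replicates here, and the day block takes out what both lines share on a day. These p-values thus measure how far the difference between these 2 series varies from day to day, and not spread between cultures. Without d8 and d10 all 9 directions stayed, but no gene was called, neither of these 9 nor of all 15950 tested (3149 had an unadjusted p under 0.05), in a fit of 4 libraries that leaves 1 residual degree of freedom.

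**Figure D1:**
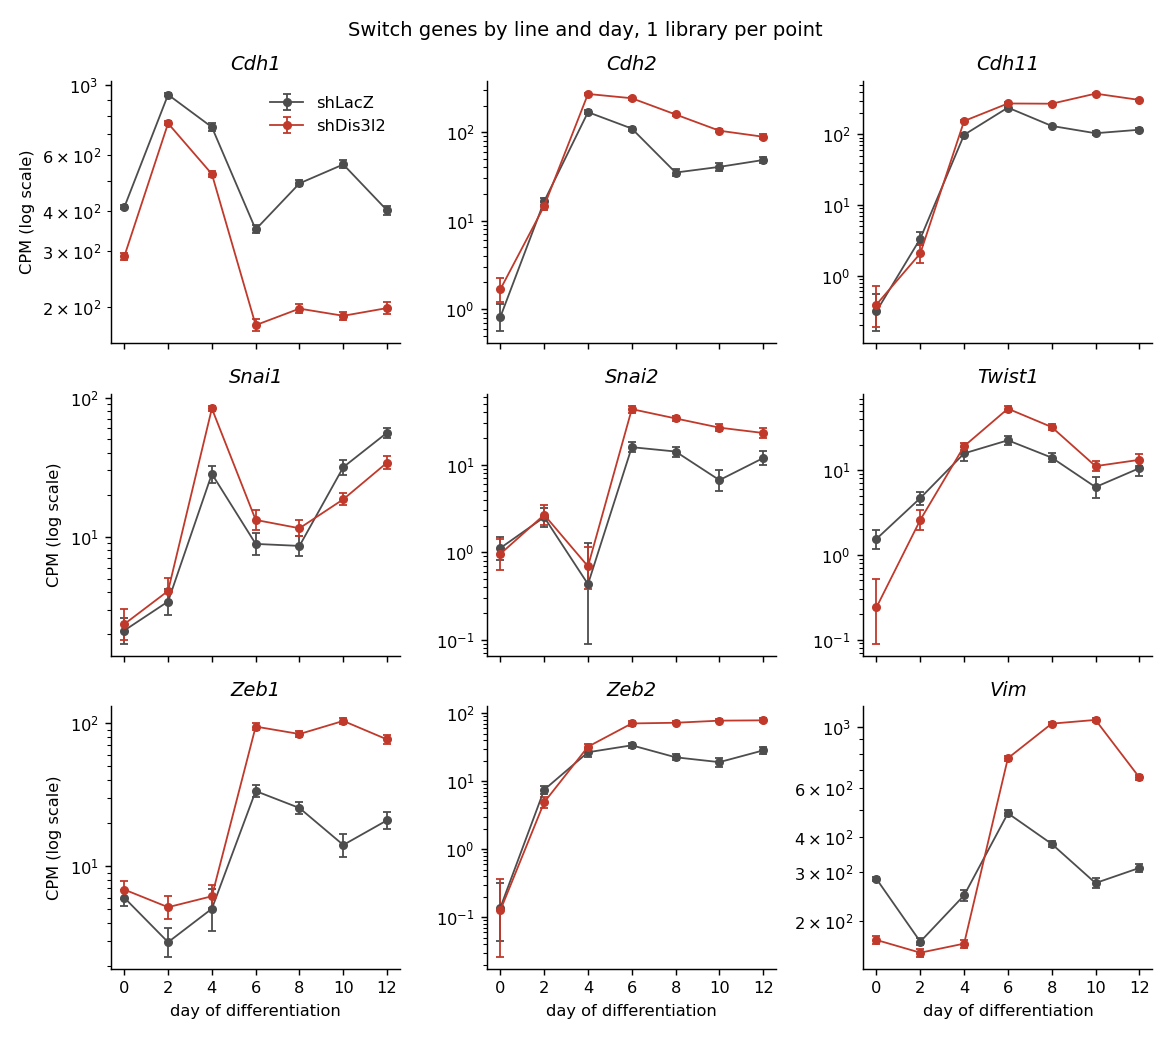
Level of each of the 9 genes in CPM (log axis, a range of its own for each panel) against the day of differentiation, with shLacZ in grey and shDis3l2 in red. Each point is 1 library and bars are 95% Poisson counting intervals. The lines lie close together for most of the genes up to d4 and apart from d6, with Cdh1 lower and Zeb1 higher in shDis3l2 on each of the 4 late days.

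Cdh1 encodes E-cadherin, the calcium-dependent adhesion molecule of epithelia and of ESC colonies. Its level was 412, 933, 737, 350.4, 489.7, 562 and 402 CPM in the shLacZ libraries, given here and for the other genes in the order of the 7 days. In shDis3l2 it was 288, 757, 524, 175, 197, 187 and 198 CPM. Both series thus peaked at d2 and were lowest at d6, and after d6 the shLacZ level partly returned while the 4 shDis3l2 values stayed between 175 and 198 CPM. The late ranges did not overlap, and the log2 fold change was -1.24 ± 0.10 (SE, edgeR adjusted p = 0.000632). shDis3l2 was lower on each of the 7 days, by 1.23-fold (1.21 to 1.26) at d2 and by 3.003-fold (2.88 to 3.13) at d10, the largest difference.

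Cdh2 encodes N-cadherin, the classical cadherin of neural and mesodermal tissue that often replaces E-cadherin in the switch. It was at 0.816, 16.5, 169, 110, 35.0, 40.6 and 48.5 CPM in shLacZ and at 1.68, 14.6, 271, 242, 159, 104 and 88.9 CPM in shDis3l2. The level peaked at d4 in both series and then fell, faster in shLacZ, where the step from d6 to d8 was a 3.14-fold fall (2.86 to 3.47). At d8 shDis3l2 was 4.54-fold higher (4.15 to 4.96). The late ranges overlapped through shLacZ d6, and the log2 fold change was 1.39 ± 0.20 (adjusted p = 0.00286).

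Cdh11 encodes cadherin-11, a type II cadherin of mesenchyme and osteoblasts. It was at 0.315, 3.35, 98.6, 239.5, 132, 104 and 116 CPM in shLacZ and at 0.392, 2.07, 155, 274, 272, 377.5 and 307.5 CPM in shDis3l2. At d0 only 12 and 10 reads were counted. The lines differed little at d6 (1.14-fold, 1.09 to 1.203), after which the shLacZ level came down and the shDis3l2 level did not. Within shDis3l2, d6 and d8 did not differ beyond counting error (0.992, 0.948 to 1.04). The log2 fold change over d6 to d12 was 1.12 ± 0.25 (adjusted p = 0.0127), and this call was lost without d8 or without d10.

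Because the reads of 1 library share a total, the 3 cadherins were also set against each other within each library, as reads per kb of exon length. Cdh1 made up 99.8% of this sum in shLacZ and 99.6% in shDis3l2 at d0, and 98.8% in both at d2. At d4 its share was 83.4% in shLacZ and 69.2% in shDis3l2, and at d6 it was 65.4% and 38.6%. The shLacZ series then went back to shares of 82.2% to 88.04% from d8 to d12, while shDis3l2 stayed between 42.5% and 48.7%. The remaining share changed in kind as well: in shDis3l2 Cdh2 went from 30.3% at d6 to 12.4% at d12, while Cdh11 went from 31.1% to 38.9%, with 44.1% at d10. Of Cdh1 and Cdh2 alone, Cdh2 held 44.0% (42.5 to 45.5) in shDis3l2 and 15.1% (14.4 to 15.9) in shLacZ at d6, and 20.3% (19.1 to 21.6) against 6.40% (5.85 to 6.99) at d12. The level of Cdh2 at d12 was thus a smaller part of the pair than at d6 in both series.

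**Figure D2:**
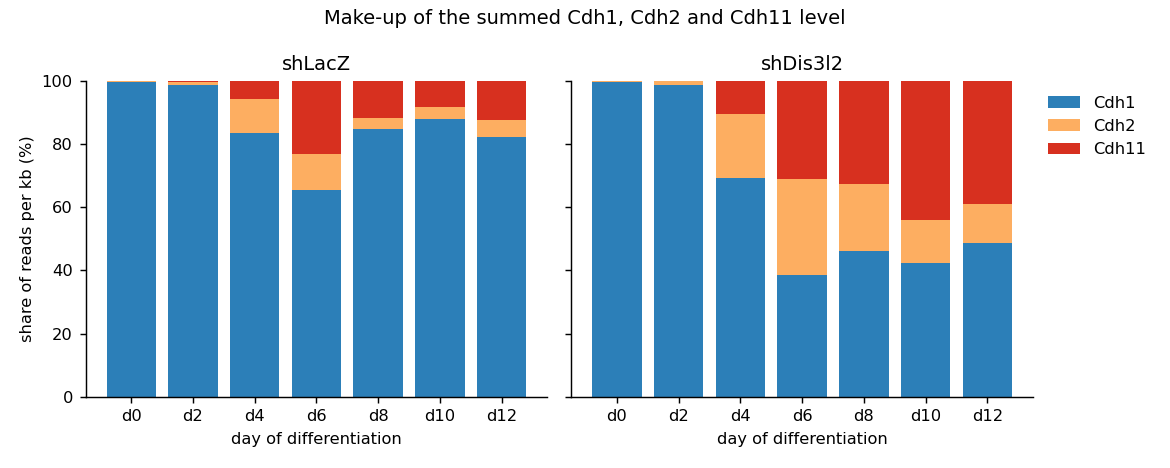
Share (%) of Cdh1, Cdh2 and Cdh11 in the sum of their reads per kb of exon length, 1 bar per library by day, for shLacZ on the left and shDis3l2 on the right. Cdh1 takes nearly the whole bar at d0 and d2 in both lines, and at d12 it takes 82.2% in shLacZ and 48.7% in shDis3l2.

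Snai1 and Snai2 encode the zinc finger repressors SNAIL and SLUG. Snai1 was at 2.12, 3.43, 28.3, 8.88, 8.59, 31.6 and 55.9 CPM in shLacZ and at 2.36, 4.08, 83.5, 13.2, 11.5, 18.6 and 34.1 CPM in shDis3l2. Both series had a peak at d4, a trough at d6 and d8 and a second rise to d12. The first peak was 2.95-fold higher in shDis3l2 (2.55 to 3.43), and the second rise was higher in shLacZ. The fold of shDis3l2 over shLacZ was 1.34 (1.08 to 1.66) at d8 and 0.588 (0.501 to 0.690) at d10, so the direction of the difference turned between these days. Accordingly the late days together gave a log2 fold change of -0.17 ± 0.26 (adjusted p = 0.627), which became 0.04 without d10 and 0.05 without d12.

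Snai2 was at 1.12, 2.52, 0.432, 15.9, 14.2, 6.67 and 11.9 CPM in shLacZ and at 0.958, 2.68, 0.690, 43.2, 33.8, 26.5 and 23.1 CPM in shDis3l2. Its pattern was the reverse of that of Snai1 between d2 and d6: it fell to 3 and 14 reads at d4, where Snai1 peaked, and was highest at d6, where Snai1 was low. Across the 14 libraries the 2 genes had a Pearson correlation of 0.19 on log2(CPM + 1). The late ranges of Snai2 did not overlap, at 6.67 to 15.9 CPM in shLacZ and 23.1 to 43.2 CPM in shDis3l2, with a log2 fold change of 1.39 ± 0.17 (adjusted p = 0.00166).

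Twist1 encodes a basic helix-loop-helix factor of mesoderm and cranial mesenchyme. It was at 1.54, 4.68, 15.8, 22.5, 14.04, 6.31 and 10.5 CPM in shLacZ and at 0.241, 2.58, 19.2, 53.1, 32.2, 11.1 and 13.2 CPM in shDis3l2. Both series were highest at d6. At d0 it was lower in shDis3l2, with 6 reads against 61 (6.42-fold, 2.93 to 19.1), and from d6 to d10 it was higher. At d12 the lines did not differ beyond counting error (1.26-fold, 0.969 to 1.63), and the late ranges overlapped. The log2 fold change over the late days was 0.93 ± 0.17 (adjusted p = 0.00664).

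The windows of 250 bases upstream of the annotated start were examined for the E-box letters CAGGTG or CACCTG, the form bound by SNAIL and ZEB proteins, since these factors are themselves among the genes described. RefSeq promoters (GRCm38.p6) were at hand for 4 of the 9 genes, and the windows that lie outside annotated exons are given here for Snai1, Twist1 and Zeb2, 5′ to 3′ on the strand of the gene, with the E-box in capitals. They cover chr2:167537945-167538194 (plus strand) for Snai1, chr12:33957421-33957670 (plus strand) for Twist1 and chr2:45117443-45117692 (minus strand) for Zeb2.
Snai1: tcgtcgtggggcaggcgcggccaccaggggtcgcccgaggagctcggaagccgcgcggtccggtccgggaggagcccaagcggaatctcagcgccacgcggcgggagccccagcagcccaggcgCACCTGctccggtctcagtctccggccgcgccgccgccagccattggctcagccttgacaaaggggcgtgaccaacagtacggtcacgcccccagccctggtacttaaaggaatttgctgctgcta
Twist1: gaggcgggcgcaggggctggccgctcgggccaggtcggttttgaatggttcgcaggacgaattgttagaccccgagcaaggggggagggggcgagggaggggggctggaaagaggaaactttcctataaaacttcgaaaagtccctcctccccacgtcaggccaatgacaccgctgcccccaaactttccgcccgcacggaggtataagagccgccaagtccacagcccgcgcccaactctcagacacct
Zeb2: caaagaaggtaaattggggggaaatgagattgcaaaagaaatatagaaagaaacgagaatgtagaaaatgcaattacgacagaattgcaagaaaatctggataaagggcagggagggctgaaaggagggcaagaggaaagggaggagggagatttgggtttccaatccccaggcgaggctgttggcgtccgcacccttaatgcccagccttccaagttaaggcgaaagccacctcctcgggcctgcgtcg
The Snai1 window held 1 E-box, CACCTG, which starts 126 bases before the annotated start, and the Twist1 and Zeb2 windows held none of these letters on either strand. Of all 32851 promoter windows of this length, 17.2% held at least 1. A match describes the letters only and is no evidence of binding.

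Zeb1 encodes a zinc finger and homeodomain repressor of Cdh1. It was at 6.01, 2.93, 5.03, 33.5, 25.5, 14.1 and 20.9 CPM in shLacZ, and at 6.85, 5.15, 6.15, 94.8, 84.1, 103.9 and 77.1 CPM in shDis3l2. Up to d4 all 6 libraries lay between 2.93 and 6.85 CPM, and the step from d4 to d6 was 6.67-fold (4.76 to 9.67) in shLacZ and 15.4-fold (12.8 to 18.7) in shDis3l2. The late ranges did not overlap, and the log2 fold change, 1.96 ± 0.22 (adjusted p = 0.00116), was the highest of the 9 genes. The fold was highest at d10, at 7.39 (6.14 to 8.998), where the shLacZ value of 116 reads was the lowest of its late days.

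Zeb2, whose product SIP1 belongs to the same family, rose earlier. It was at 0.139, 7.52, 26.8, 33.8, 22.6, 19.1 and 28.5 CPM in shLacZ and at 0.127, 4.92, 32.3, 71.0, 72.6, 78.0 and 78.9 CPM in shDis3l2. The d0 values rest on 5 and 3 reads. From d6 the shDis3l2 values stayed within 71.0 to 78.9 CPM, d6 and d8 not differing beyond counting error (1.02-fold, 0.936 to 1.12), while those of shLacZ lay between 19.1 and 33.8 CPM. The log2 fold change was 1.55 ± 0.15 (adjusted p = 0.000885). An antisense gene, Zeb2os, overlaps an exon of Zeb2 and had 267 reads over the 14 libraries, against 7116 for Zeb2. Whether the counting used strand is not given in the sources used here, so reads where these genes overlap cannot be told apart. The same holds for Zeb1 and Gm10125, a transcript on the opposite strand with 38 reads against 7650.

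Vim encodes vimentin, the intermediate filament protein of mesenchymal cells, and ESCs already express it. It was at 284, 169, 248, 488, 379, 274 and 311 CPM in shLacZ and at 171, 154, 166, 769.6, 1024, 1056 and 657 CPM in shDis3l2. The shLacZ series peaked at d6 at 2.89 times its lowest value, and the shDis3l2 series at d10 at 6.85 times its lowest value. shDis3l2 was the lower series up to d4 and the higher one from d6, with late ranges that did not overlap and a log2 fold change of 1.27 ± 0.20 (adjusted p = 0.00348). In bulk samples more cells that express a gene and more RNA per cell cannot be told apart, and this holds for each of the 9 genes.

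Over d6 to d12 the ranges of the lines did not overlap for 6 of the 9 genes, 5 of them higher in shDis3l2 (Cdh11, Snai2, Zeb1, Zeb2 and Vim) and 1 lower (Cdh1). Of all genes tested, 12.7% had non-overlapping ranges with shDis3l2 higher and 10.8% with shDis3l2 lower. Ranked per kb of exon length, the levels at d10 in shLacZ were 123 CPM per kb for Cdh1, 57.8 for Vim, 19.5 for Snai1, 11.7 for Cdh11, 5.03 for Cdh2, 3.90 for Twist1, 3.29 for Snai2, 1.39 for Zeb1 and 0.960 for Zeb2. In shDis3l2 at d10 they were 223 CPM per kb for Vim, 42.4 for Cdh11, 40.9 for Cdh1, 13.1 for Snai2, 12.9 for Cdh2, 11.5 for Snai1, 10.3 for Zeb1, 6.90 for Twist1 and 3.91 for Zeb2. The leading gene at d10 was thus Cdh1 in shLacZ and Vim in shDis3l2, and so it was at d8 and d12. At d6 Vim led in both lines, at 102.9 CPM per kb against 76.6 for Cdh1 in shLacZ and at 162 against 38.2 in shDis3l2. Zeb2 was last in all 8 late libraries by this measure, which divides by 19942 bases of exon length for Zeb2 and 10112 for Zeb1. Without division by length it was not last. At d10 in shLacZ it lay at 19.1 CPM, against 14.1 for Zeb1, 6.67 for Snai2 and 6.31 for Twist1. With 1 library per line and day, neighbours in this order such as Cdh11 and Cdh1 in shDis3l2 cannot be separated by replicates.

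Day by day, a difference between the lines of at least 3-fold, where either library reached 1 CPM, was counted over protein-coding genes without a test. At d0 it was met by 1 of the 9 genes, Twist1, against 2.84% of all genes. None met it at d2 (0.243% of all genes), d4 (2.04%) or d6 (6.92%). At d8 Cdh2, Zeb1 (3.30-fold, 2.96 to 3.68) and Zeb2 (3.22-fold, 2.88 to 3.62) met it, against 9.18% of all genes. At d10 it was met by 6 genes, against 11.8%: Cdh1, Cdh11 (3.63-fold, 3.39 to 3.90), Snai2 (3.98-fold, 3.02 to 5.36), Zeb1, Zeb2 (4.08-fold, 3.46 to 4.83) and Vim (3.85-fold, 3.69 to 4.02). At d12 Zeb1 alone met it, at 3.68-fold (3.16 to 4.31), against 9.57%. The count was highest at d10, the day on which Dis3l2 itself stood at 0.95 of the control. The day of the highest count depends on the criterion: at 2-fold it was d8, with 8 of the 9 genes (20.2% of all genes), against 7 on d10 (23.2%). By the same criterion 6 genes differed on d6 (15.3%), 5 on d12 (17.7%), 2 on d0 (11.8%), 1 on d4 (6.69%) and 0 on d2 (1.69%). Snai1 at d4 lay just outside the criterion and Cdh1 at d10 just inside.

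The median log2 fold of the 8 genes other than Cdh1, of which 6 passed the CPM minimum at d0, 7 at d4 and all 8 otherwise, was -0.03, -0.15 and 0.29 on the 3 early days and 1.10, 1.35, 1.90 and 1.02 on the 4 late days. The median over all genes from d4 to d12 lay between -0.01 and 0.05. At d0 the sign depends on the scaling, and the median of these genes was 0.24 with TMM. All 8 of these genes were higher in shDis3l2 at d6 and d8, and 7 of 8, without Snai1, at d10 and d12.

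**Figure D3:**
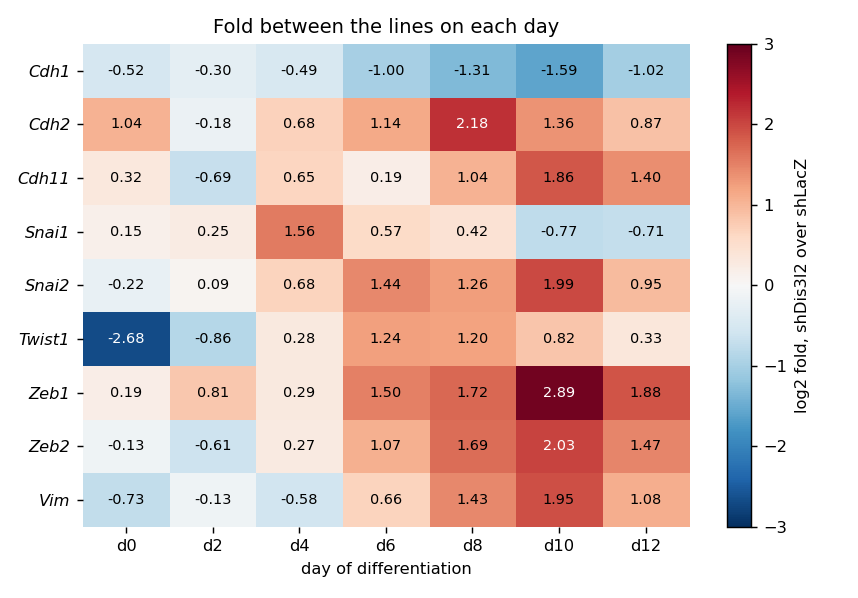
Log2 fold of shDis3l2 over shLacZ in CPM for each of the 9 genes (vertical) on each day (horizontal), 1 library per line and day, with red for higher and blue for lower in shDis3l2. Cdh1 is below 0 on each of the 7 days, the highest value is that of Zeb1 at d10 (2.89), and Snai1 changes sign between d8 and d10.

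Whether the line difference itself changed between the early days (up to d4) and the late days (from d6) was tested with the line by stage term of an edgeR fit over the 14 libraries. It became more positive for Snai2, Zeb1, Zeb2 and Vim and more negative for Cdh1. The change was 1.16 ± 0.33 on the log2 scale for Snai2 (adjusted p = 0.0477), 1.36 ± 0.32 for Zeb1 (adjusted p = 0.0267), 1.601 ± 0.29 for Zeb2 (adjusted p = 0.0118), 1.59 ± 0.26 for Vim (adjusted p = 0.00988) and -0.97 ± 0.17 for Cdh1 (adjusted p = 0.0106). It did not pass for Twist1 (1.49, adjusted p = 0.0680), Cdh2 (0.85, adjusted p = 0.136), Cdh11 (0.82, adjusted p = 0.231) or Snai1 (-1.06, adjusted p = 0.131). Of the 16739 genes tested, 6.14% changed upwards and 6.41% downwards, 1027 and 1073 genes, and 1157 and 423 when library totals replaced TMM. Over the fits with each day left out, the number of the 9 genes called ran from 2 (without d2) to 5. Without d8 and d10 together 0 of the 9 were called, with all 9 directions kept, and of 16431 genes 20 were called upwards and 2 downwards (2374 had an unadjusted p under 0.05). The term for Dis3l2 was 1.61 ± 0.29 (adjusted p = 0.0118), since its own difference shrank over the same days.

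With differentiation, all 9 genes moved when both series were fitted at once. Against d0 to d4, the late days were lower for Cdh1 and higher for the other 8 genes by edgeR's test with line as a block, where 39.1% of 17162 genes were called higher and 33.9% lower. The log2 changes were -1.17 ± 0.18 for Cdh1 (adjusted p = 0.000228), 5.22 ± 0.30 for Cdh11 (adjusted p = 7.66e-07), 3.89 ± 0.27 for Snai2 (adjusted p = 1.90e-06), 3.72 ± 0.34 for Zeb2 (adjusted p = 9.15e-06) and 2.97 ± 0.30 for Zeb1 (adjusted p = 1.52e-05). Those of Cdh2 (2.23 ± 0.24, adjusted p = 2.09e-05), Twist1 (1.92 ± 0.37, adjusted p = 0.000957), Vim (1.30 ± 0.30, adjusted p = 0.00323) and Snai1 (1.10 ± 0.28, adjusted p = 0.00471) were smaller than those of the other 4 genes that rose. Without d0 the change of Cdh2 was 0.56 (adjusted p = 0.0914) and that of Snai1 0.42, and neither was called. Snai1 was also not called without d2 (0.47). Without d8 and d10 together all 9 genes were called, in the same directions. By series, the early and late ranges of Cdh1, Zeb2 and Vim were apart in shDis3l2 and overlapped in shLacZ. Those of Cdh2, Snai1 and Twist1 overlapped in both series. The spread in this test is how far the 2 series disagree from day to day. Its p-values therefore do not measure spread between cultures, and the same holds for the line by stage term.

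Most steps of at least 3-fold fell between the same days in the 2 series. From d0 to d2 the criterion was met by 4 genes in each, all 4 shared and higher at d2. These counts were near the shares of all genes, 37% in shLacZ and 43.6% in shDis3l2. The share of all genes that met it in both series is not given here. Cdh2 rose 20.3-fold (14.4 to 30.5) in shLacZ and 8.74-fold (6.40 to 12.4) in shDis3l2, Zeb2 54.0-fold (25.2 to 186) and 38.7-fold (14.4 to 213), the latter from 3 reads, and Cdh11 and Twist1 by 3.03-fold to 10.8-fold. This step moved with the scaling: the median log2 step of all genes was 0.50 in shLacZ and 0.78 in shDis3l2, and -0.05 and 0.0048 with TMM, with 2538 in place of 3603 genes higher and 2400 in place of 1428 lower in shLacZ, and 2909 in place of 4496 higher and 2649 in place of 1372 lower in shDis3l2. Twist1 in shLacZ, at 3.03-fold, no longer met the criterion with TMM, with DESeq2 size factors or with the denominator of the deposited CPM, which left 3 genes there, and in shDis3l2 the size factors of DESeq2 left 3. At 2-fold it was met by 7 genes in shLacZ, against 56.7% of all genes. From d2 to d4 it was met by 6 genes in each, all 6 shared, against 13.2% and 16%. Snai1 rose 8.26-fold (6.44 to 10.8) in shLacZ and 20.5-fold (16.5 to 25.8) in shDis3l2, Cdh11 29.4-fold and 74.7-fold, Cdh2 10.2-fold and 18.5-fold, and Snai2 was the gene that was lower at d4. The rises of Cdh2, Cdh11, Snai1, Twist1 and Zeb2 were larger in shDis3l2 in this step.

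From d4 to d6 Snai1 came down, by 3.19-fold (2.53 to 4.04) in shLacZ and 6.32-fold (5.32 to 7.57) in shDis3l2, as Snai2 and Zeb1 rose, so that 3 of the 9 genes met the criterion in shLacZ (10.7% of all genes). In shDis3l2 there were 4 (15.9%), with Vim the fourth, at 4.63-fold (4.45 to 4.82) against 1.97-fold (1.87 to 2.08) in shLacZ. The Snai2 ratio was 36.8 (12.8 to 186) in shLacZ, from 3 reads, and 62.6 (37.6 to 118) in shDis3l2, from 14 reads. Cdh1 fell 2.10-fold in shLacZ and 2.999-fold in shDis3l2, just short of the criterion. After d6 the shDis3l2 series had no such step from d6 to d8 (7.97% of all genes), d8 to d10 (3.56%) or d10 to d12 (1.98%). In shLacZ there was the fall of Cdh2 from d6 to d8 (4.46% of all genes) and the rise of Snai1 from d8 to d10 (3.68-fold, 2.995 to 4.54, against 2.14%), and none from d10 to d12 (1.9%). At 2-fold, 5 genes met it from d4 to d6 in shLacZ (19.8% of all genes) and 7 in shDis3l2 (27.3%), and 3 from d8 to d10 in shLacZ (5.94%) and 1 in shDis3l2 (7.81%). All 8 genes other than Cdh1 were lower at d8 than at d6 in shLacZ, with a median log2 step of -0.49, against 0.008 over all genes. For Snai1 (0.967, 0.753 to 1.24) and Snai2 (0.892, 0.738 to 1.08) this step did not go beyond counting error.

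The other genes of the pathway were read from lists by role, with the same test over d6 to d12, in which 19.7% of all genes were higher and 19.2% lower. Of the 6 TGF-beta ligands and receptors, which start the switch in many epithelia, 4 were higher in shDis3l2 and 0 lower, led by Tgfb3 (log2 fold change 3.92 ± 0.48, adjusted p = 0.00166) and Tgfb1 (1.37 ± 0.11, adjusted p = 0.000554) and joined by Tgfb2 (1.23) and the receptor gene Tgfbr1 (1.14). Tgfb3 lay at 0.766 to 2.39 CPM in shLacZ and at 1.33 to 67.4 CPM in shDis3l2. Of 7 other transcription factors of the switch, 5 were higher and 1 lower, with Twist2 (2.40 ± 0.22, adjusted p = 0.000746) and the limb and craniofacial mesenchyme factor Prrx1 (2.16 ± 0.40, adjusted p = 0.00692) in front. Foxc2 (2.06), Tcf4 (0.71) and Tcf3 (0.54) were the other higher ones, and Klf8 (-0.78) was the lower one.

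On the epithelial side, 6 of 8 transcription and splicing factors were lower and 0 higher, where 19.2% of all genes were lower and 19.7% higher. Grhl2, a grainyhead factor that sustains Cdh1, lay at 10.3 to 15.9 CPM in shLacZ and at 4.35 to 8.91 CPM in shDis3l2 (-1.32 ± 0.28, adjusted p = 0.0115), and Ovol1, a repressor of mesenchymal factor genes, was near 1 CPM and down to 2 reads (-1.68 ± 0.32, adjusted p = 0.00735). Of 12 junction and keratin genes 6 were lower and 0 higher, with the tight junction genes Cldn6 (-1.36 ± 0.12, adjusted p = 0.000643) and Cldn7 (-1.24 ± 0.12, adjusted p = 0.000837) changed most, beside Crb3, Ocln, Epcam and Krt18. This list did not fall with time, where 39.1% of all genes were higher and 33.9% lower: 9 of the 12 were higher and 2 lower on the late days than on the early days, Cldn6 by 2.43 and Cldn7 by 1.36 on the log2 scale. In the fit of both series Cdh1 was thus lower on the late days, while most of this list rose. The early and late ranges of Cdh1 were apart in shDis3l2 (288 to 757 and 175 to 198 CPM). In shLacZ they overlapped (412 to 933 and 350.4 to 562 CPM).

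Of 11 mesenchymal matrix and cytoskeleton genes tested, 9 were higher in shDis3l2 and 1, Sparc, was lower (-0.63), and the median log2 fold change was 1.84. The collagen gene Col1a2 lay at 7.23 to 183 CPM in shLacZ and at 70.6 to 3113 CPM in shDis3l2 (3.68 ± 0.26, adjusted p = 0.000398), and the smooth muscle actin gene Acta2 at 52.4 to 136 and at 378 to 1838 CPM (3.49 ± 0.17, adjusted p = 0.000231). Of the 6 catenins, the cytoplasmic partners of the cadherins, 2 were higher, the neural Ctnna2 (0.78 ± 0.25, adjusted p = 0.0486) and Ctnnd2 (0.72 ± 0.21, adjusted p = 0.0352), and 1, Jup, the plakoglobin gene, was lower (-0.40). Of 7 other classical cadherins with enough reads, 2 were higher and 1 lower: Cdh10 at 1.23 ± 0.24 (adjusted p = 0.00792) and Cdh3, the P-cadherin gene, at 0.81, and Cdh6 at -1.07 ± 0.09 (adjusted p = 0.000644) in the other direction. For the catenins and the other cadherins these counts are near the shares of all genes called.

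The lists also moved with stage. The late days were higher than the early days for 5 of 6 TGF-beta genes and lower for 0, for 5 and 2 of 8 other switch factors, for 4 and 1 of 6 catenins, for 6 and 0 of 9 other classical cadherins, for 11 and 0 of 11 mesenchymal genes and for 2 and 3 of 8 epithelial factors, where the shares of all genes were 39.1% and 33.9%, near the counts of the epithelial factors. The line difference itself, which became more positive for 6.14% of all genes and more negative for 6.41%, became more positive for 9 of the 11 mesenchymal genes, by 3.38 on the log2 scale for Col1a2 (adjusted p = 0.00458) and by 3.45 for Acta2 (adjusted p = 0.0178), and for 3 of 6 TGF-beta genes, Tgfb1 at 1.55 (adjusted p = 0.0117), Tgfb2 at 2.54 and Tgfbr1 at 0.86. Twist2 (2.26, adjusted p = 0.106) and Prrx1 (2.61, adjusted p = 0.113) had terms larger than that of any of the 9 genes but did not pass this test. It became more negative for 1 of 8 epithelial factors, Grhl2 (-1.39, adjusted p = 0.0350), and for 2 of 12 junction and keratin genes, Cldn6 (-0.86, adjusted p = 0.0435) and Cldn7 (-0.85, adjusted p = 0.0256). Of the catenins 1 of 6 became more positive, Ctnnd2 (1.29, adjusted p = 0.0299), and of the other classical cadherins 2 of 9 did, Cdh10 at 1.41 (adjusted p = 0.0323) and Cdh3 at 1.53, and Cdh9 became more negative (-2.09).

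**Figure D4:**
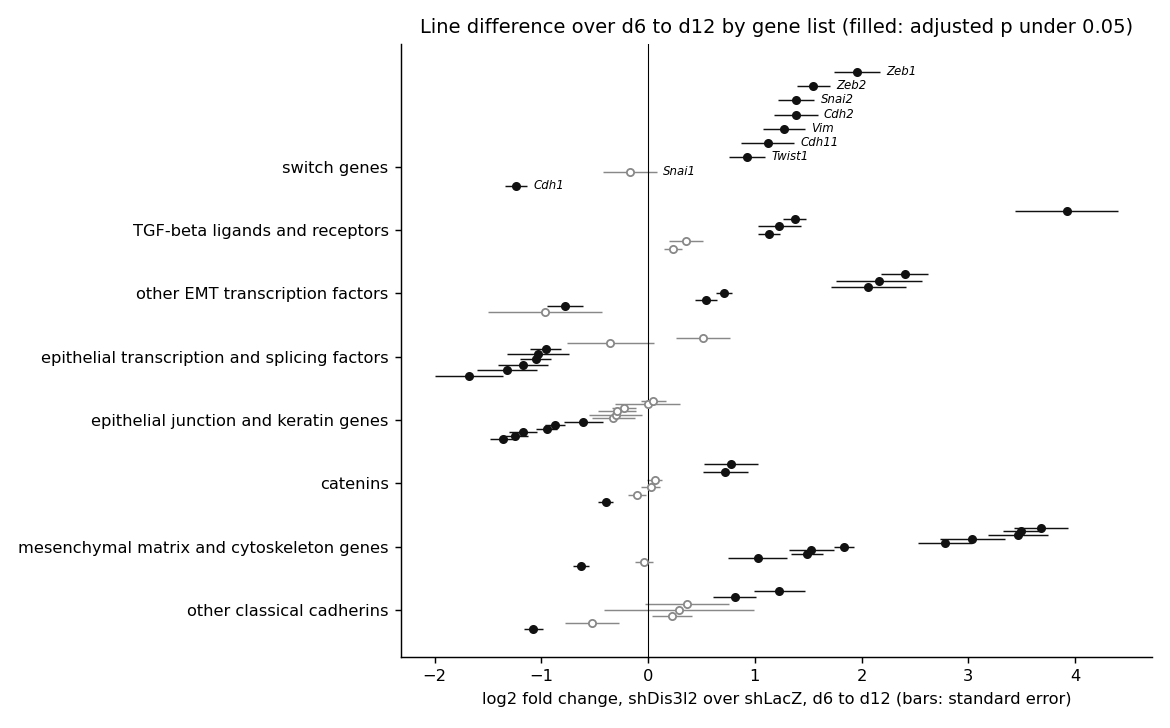
Log2 fold change of shDis3l2 over shLacZ over d6 to d12 (horizontal) by gene list (vertical), 1 point per gene with its standard error, from edgeR on 8 libraries. Filled points have an adjusted p under 0.05. Of the switch genes 7 filled points lie above 0 and Cdh1 lies below, and the epithelial lists have filled points only below 0.

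Markers of the cell types an EB can hold moved over the same days, and their part in the results above was not tested. The summed level of 7 visceral endoderm markers, a Cdh1-positive epithelium, was 2752 to 6260 CPM in shLacZ and 538 to 1699 CPM in shDis3l2 over d6 to d12, and 3 of the 7 had non-overlapping lower ranges in shDis3l2. That of 6 fibroblast and mesenchyme markers was 325 to 1603 CPM in shLacZ and 794 to 10963 CPM in shDis3l2, ranges that overlap, with none of the 6 at 0 in any late library and 1 of the 6 higher without overlap in shDis3l2. That of 7 pluripotency markers, also of Cdh1-positive cells, was 378 to 539 CPM in shLacZ and 64.1 to 368 CPM in shDis3l2, with 3 of 7 lower without overlap. That of 6 neural markers, cells that carry Cdh2, was 37.3 to 87.2 and 70.9 to 181 CPM, with 1 of the 6 higher and 1 lower without overlap. The endothelial sums were 88.6 to 200.2 and 194.5 to 391 CPM, the cardiomyocyte sums 6.54 to 18.5 and 8.48 to 94.7 CPM and the primitive blood sums 3.97 to 552 and 20.6 to 699 CPM. In these 3 groups 0 markers had ranges without overlap in either direction. Over all genes tested the share without overlap was 12.7% higher and 10.8% lower in shDis3l2. The mesenchyme and neural counts are near these shares. At d4, the day of the first Snai1 peak, the 5 primitive streak markers summed to 973 CPM in shLacZ and 1772 CPM in shDis3l2, and to no more than 98.8 CPM in any other library. Over d6 to d12 their sum was 25.4 to 98.8 CPM in shLacZ and 4.02 to 18.6 CPM in shDis3l2. Of the 5 markers, 2 were lower and 0 higher in shDis3l2 without overlap.

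Over the 14 libraries the 9 genes fell into no single pattern. The Pearson correlations of log2(CPM + 1), which share the course of differentiation and are given as a description, were 0.95 for Zeb1 with Vim, 0.94 for Zeb1 with Snai2, 0.96 for Cdh11 with Zeb2, 0.93 for Cdh2 with Zeb2 and 0.92 for Cdh2 with Twist1. Cdh1 ran opposite to Zeb1 (-0.87), Vim (-0.83) and Snai2 (-0.72), and less so to Cdh11 (-0.46), Zeb2 (-0.42), Twist1 (-0.36), Cdh2 (-0.26) and Snai1 (-0.11). Of all protein-coding genes with at least 10 CPM in 1 library, the most similar to Cdh1 were Bspry (0.966) and Sgk1 (0.962), to Cdh2 Thsd7a (0.982) and Rbms1 (0.975), to Cdh11 Meis3 (0.993) and Fam171a1 (0.989), and to Snai1 5730559C18Rik (0.912) and Frzb (0.904). The most similar to Snai2 were Igfbp5 (0.970) and Ctso (0.966), to Twist1 Cnksr2 (0.982) and Baz2b (0.979), to Zeb1 Ackr3 (0.981) and Twist2 (0.973), to Zeb2 Mthfd2l and Pcdh18 (both 0.990), and to Vim Fstl1 and Hoxa11 (both 0.963). These neighbours depend on the measure: 1 of the 18 remained with Spearman's correlation and 6 of 18 without d0.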

How the data were processed

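Polyadenylated RNA of both lines was sequenced once per line and day. Per the labels and the study's methods, Subread alignment to GRCm38 (Ensembl 88) and featureCounts gave the gene counts, which the authors deposited as raw counts. Their deposited CPM table, an edgeR output, was found to hold the count plus 0.25 scaled to the protein-coding genes it lists, and was used to choose the genes. Columns labelled shm5 were taken as shDis3l2, since each shares its day with 1 title of that line and the other title has a column of its own. No per-sample column was left unused (0).

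For the values here, counts were scaled to CPM by library total after adding a prior of 0.25, and folds have 95% Clopper-Pearson intervals and a floor of 3 counts. The 3 tests used edgeR 4.0.16 in R 4.3.3 (quasi-likelihood, TMM, filterByExpr, Benjamini-Hochberg, threshold 0.05), tested on simulated data. DESeq2 1.42.0, other scalings, filters and days left out were alternatives. Values were described in Python 3.11.15 with pandas 2.3.3 and drawn with matplotlib 3.10.9. The fits without d8 and d10 were added after the data were seen.

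The 9 genes, the lists, the 3-fold criterion and the tests were chosen with earlier results of these data known. Named besides the 9 genes and Dis3l2 are, per list, the 2 called genes with the largest change between the lines over d6 to d12 and, per gene, the 2 genes of highest Pearson correlation on log2(CPM + 1) with at least 10 CPM in 1 library. Further genes of the lists were named because they were called, after their values were seen. Intervals and floors cover counting error only, because there is 1 library per line and day. They take each read as a separate molecule. Reads copied by PCR, with no molecular identifiers, are not, so the intervals can be too narrow.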

Additional observations from a re-analysis of the deposited data

Results flagged for a closer look

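The difference between the lines changed between the early days (up to d4) and the late days by the line by stage term of edgeR, with Benjamini-Hochberg adjustment, for 5 of the 9 switch genes. The term, in log2 units, was 1.601 for Zeb2, 1.59 for Vim, 1.36 for Zeb1, 1.16 for Snai2 and -0.97 for Cdh1. It was 1.61 for Dis3l2, the targeted gene. Among the pathway genes named by list it was 3.45 for Acta2, 3.38 for Col1a2, 1.55 for Tgfb1, 1.41 for Cdh10, 1.29 for Ctnnd2, -1.39 for Grhl2, -0.86 for Cldn6 and -0.85 for Cldn7. With each of the 7 days left out in turn, the calls of Vim, Cdh1, Dis3l2, Col1a2 and Tgfb1 stayed in all 7 fits. That of Zeb2 was lost without d2 (adjusted p = 0.0708). Acta2 was called in 4 of the 7 fits (adjusted p up to 0.0745), Zeb1 in 3 (up to 0.0855), Cldn7 in 3 (up to 0.102), Ctnnd2 in 2 (up to 0.0929), Grhl2 in 2 (up to 0.108), Cdh10 in 2 (up to 0.114), Cldn6 in 2 (up to 0.169) and Snai2 in 1 (up to 0.159). Without d8 and d10 together, Col1a2 alone of these genes was called (3.75, adjusted p = 0.0416).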

How the results depend on the processing

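All alternatives kept the direction of each of the 9 genes in the 3 tests, except Snai1 over d6 to d12, which ran from -0.40 to 0.051 with 1 day left out and was positive without d10 (0.043) and without d12 (0.051). In the model with no replicate block 3334 genes were called over d6 to d12 (6217 in the fit with the block), and Cdh2 (1.34) and Twist1 (1.02) were not. With 1 day left out the count ran from 3200 to 6480, and without d8 and d10 together 0 genes and 0 of the 9 were called. For the change of the difference, 2100 genes and 5 of the 9 were called, 3279 and 9 with no count filter, 457 to 2192 and 2 to 5 with 1 day left out, and 22 and 0 without d8 and d10. The test of time called all 9 without d8 and d10. In the test of the change of the difference, DESeq2 called 1345 genes up and 1292 down.

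With a 2-fold in place of a 3-fold criterion, the lines differed in 2 of the 9 genes on d0, 1 on d4, 6 on d6, 8 on d8, 7 on d10 and 5 on d12, so that the count was highest on d8 and not on d10. The steps were then 7 from d0 to d2, 5 from d4 to d6 and 3 from d8 to d10 in shLacZ, and 7 from d4 to d6 and 1 from d8 to d10 in shDis3l2. Without division by length, the share of Cdh2 in Cdh1 plus Cdh2 in shLacZ was 0.195%, 1.74%, 18.6%, 23.9%, 6.66%, 6.73% and 10.8% from d0 to d12, and in shDis3l2 0.574%, 1.89%, 34.1%, 58.1%, 44.6%, 35.7% and 31.0%. In the tests of the line difference, the day block pairs the 2 libraries of a day. Because each line has 1 library per day, spread within a line and day could not be measured. Depth limits the values at d0, where Cdh11, Zeb2 and, in shDis3l2, Twist1 rest on 12 reads or fewer, and Snai2 at d4.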
